A study of Mus musculus with 6 samples.

Results

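The immunoglobulin heavy variable (Ighv) segments are the germline gene pieces that encode the antigen-contacting part of antibody heavy chains. They were taken as every gene identifier whose symbol in the GENCODE M21 mouse annotation begins with Ighv and a digit, which gave 185 of the 55487 identifiers in the deposited tables. The study measured polyA RNA of CD45+ cells, described as total hematopoietic cells, from wild-type C57BL6/J mice in 3 spleen libraries and 3 libraries of mLN, the mesenteric lymph node of the gut. All 6 samples were freshly prepared, no treatment, transgene or deletion is given for either tissue, and the mice's age is not given in the sources used here. Ptprc, which encodes CD45, was at 2191 ± 39 CPM in the spleen libraries and at 2675 ± 35 CPM in the mLN libraries (mean ± SD, n = 3 each). CPM is the expected count of a gene per 1000000 counts of its library after TMM scaling. Nothing in the labels ties the replicates of a tissue to different mice, and a p-value here is therefore set only by how far these samples scatter, possibly for technical reasons.

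A B cell joins 1 variable, 1 diversity (D) and 1 joining segment of the heavy chain locus during its development, and RNA that reads through the joined segments is spliced to a constant gene such as Ighm or Igha. The choice of variable segment fixes much of what the antibody can bind, and a cell's descendants keep it, so the mixture of Ighv RNA in a tissue reflects which B cells and plasma cells it holds and how much RNA each makes. Plasma cells hold far more antibody RNA than resting B cells, and in bulk samples fewer cells of a type and less RNA per cell cannot be told apart. The digits after Ighv name first the subgroup, a set of segments of similar sequence, and then the segment.

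The 185 segments lay on chromosome 12 between 113572927 and 116010093 (GRCm38, the assembly also called mm10) and belonged to 16 subgroups. The annotation gave 113 as functional variable genes, 70 as pseudogenes and 2 as a further class of variable gene. Of all 185, 63 had no counts in any library and 122 had counts, of which 73 passed the filter on low counts and were tested. The 112 segments that were not tested held 1.43% of the Ighv counts of all libraries. Annotated transcripts of the tested segments were from 347 to 480 bases long, with a median of 358. Their effective lengths were not compared, so ranks of abundance between segments may depend partly on length.

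Sequences of 3 pairs of segments, each pair from 1 subgroup, are shown because the members of each pair differed in how their RNA changed between tissues. Each line holds the opening 290 bases of the variable exon, which is protein-coding, from the GENCODE M21 transcripts (GRCm38, minus strand, 5′ to 3′), with bases that differ within the pair in capitals. Ighv7-1 (chr12:113896435-113896724) and Ighv7-3 (chr12:114153205-114153494) differed at 31 bases and were 89.3% identical. Ighv10-1 (chr12:114479028-114479317) and Ighv10-3 (chr12:114523464-114523753) differed at only 9 bases, an identity of 96.9%. Ighv1-9 (chr12:114583584-114583873) and Ighv1-77 (chr12:115861882-115862171) differed at 30 bases and were 89.7% identical. The pairs were chosen after their values were seen.
Ighv7-1: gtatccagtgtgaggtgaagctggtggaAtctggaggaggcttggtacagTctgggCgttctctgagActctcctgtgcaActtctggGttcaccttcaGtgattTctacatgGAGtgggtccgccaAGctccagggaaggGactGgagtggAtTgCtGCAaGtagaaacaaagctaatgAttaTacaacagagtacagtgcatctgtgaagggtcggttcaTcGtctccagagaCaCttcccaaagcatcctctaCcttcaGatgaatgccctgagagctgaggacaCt
Ighv7-3: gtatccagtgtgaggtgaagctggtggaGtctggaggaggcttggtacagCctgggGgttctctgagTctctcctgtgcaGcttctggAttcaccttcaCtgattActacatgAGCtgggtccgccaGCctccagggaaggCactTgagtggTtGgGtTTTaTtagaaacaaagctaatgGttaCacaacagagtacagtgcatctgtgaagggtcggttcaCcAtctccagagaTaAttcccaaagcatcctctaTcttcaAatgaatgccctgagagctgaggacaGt
Ighv10-1: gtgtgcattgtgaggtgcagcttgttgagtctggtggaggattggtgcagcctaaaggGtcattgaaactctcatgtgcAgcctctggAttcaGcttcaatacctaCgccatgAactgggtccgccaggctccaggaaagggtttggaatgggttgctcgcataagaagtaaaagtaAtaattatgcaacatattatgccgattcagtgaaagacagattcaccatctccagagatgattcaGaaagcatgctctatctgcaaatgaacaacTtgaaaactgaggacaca
Ighv10-3: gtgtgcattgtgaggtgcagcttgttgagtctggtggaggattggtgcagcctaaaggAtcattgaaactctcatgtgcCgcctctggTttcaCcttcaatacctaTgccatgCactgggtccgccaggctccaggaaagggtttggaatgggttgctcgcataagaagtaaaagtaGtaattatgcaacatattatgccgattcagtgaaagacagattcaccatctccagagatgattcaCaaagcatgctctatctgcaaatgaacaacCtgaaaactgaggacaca
Ighv1-9: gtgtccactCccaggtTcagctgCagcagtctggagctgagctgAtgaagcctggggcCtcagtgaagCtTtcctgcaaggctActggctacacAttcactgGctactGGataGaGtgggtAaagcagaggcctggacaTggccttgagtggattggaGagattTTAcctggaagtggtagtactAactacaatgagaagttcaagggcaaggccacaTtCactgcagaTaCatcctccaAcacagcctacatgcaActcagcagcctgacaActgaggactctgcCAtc
Ighv1-77: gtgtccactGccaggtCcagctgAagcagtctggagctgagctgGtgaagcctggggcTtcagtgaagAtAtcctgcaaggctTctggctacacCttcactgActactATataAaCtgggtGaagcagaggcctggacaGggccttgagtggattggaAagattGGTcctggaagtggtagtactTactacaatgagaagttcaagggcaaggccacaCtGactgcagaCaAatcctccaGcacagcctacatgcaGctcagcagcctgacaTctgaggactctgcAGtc

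Library depth was 12584244 to 18119551 expected counts. The Ighv segments took 12211, 12186 and 11868 of them in spleen and 4238, 4712 and 3187 in mLN, so single segments were measured with less precision in mLN. Every pair of libraries differed in its segment mixture by more than counting alone gives (chi-square per degree of freedom 1.70 to 3.62 within a tissue and 8.66 to 11.8 between tissues). Over all genes the same measure was 3.002 to 3.70 within a tissue and 40.9 to 51.6 between tissues. The distance between 2 mixtures, the summed absolute difference of segment shares divided by 2, was 5.8% to 6.61% within spleen, 9.12% between mLN replicates 1 and 3, 13.0% and 15.7% between mLN replicate 2 and the other two, and 17.8% to 22.2% between tissues. The mLN replicate 2 thus stood somewhat apart from its group, and some results are also given without it.

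Summed over all segments, Ighv RNA was lower in mLN than in spleen, and by about the same ratio as heavy constant RNA. The Ighv sum stood at 702, 742 and 709 CPM in spleen and at 283, 265 and 258 CPM in mLN. All mLN libraries were below all spleen libraries, with means of 718 ± 21.5 and 269 ± 12.7 CPM (SD, n = 3 each), a 2.67-fold higher level in spleen and a log2 ratio of -1.42. The 8 heavy constant genes summed to 10391 ± 177 CPM in spleen and 3713 ± 44.1 CPM in mLN, a 2.80-fold difference. Ighv counts per 100 heavy constant counts were 6.67, 7.10 and 6.96 in spleen and 7.68, 7.17 and 6.86 in mLN, so the tissues overlapped.

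Against general B-cell RNA the Ighv sum was still lower in mLN. The 14 pan-B marker genes, such as Ms4a1 and Cd22, summed to 8087 ± 60.2 CPM in spleen and 4741 ± 47.2 CPM in mLN, 1.71-fold higher in spleen. Per 100 pan-B counts there were 8.65, 9.13 and 8.85 Ighv counts in spleen and 6.03, 5.59 and 5.39 in mLN. These values do not overlap, and their means of 8.88 ± 0.240 and 5.67 ± 0.325 differ 1.57-fold. Without mLN replicate 2 the log2 ratios were -1.41 for the level, 0.073 per heavy constant count and -0.64 per pan-B count. No p is given for these sums.

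**Figure D1:**
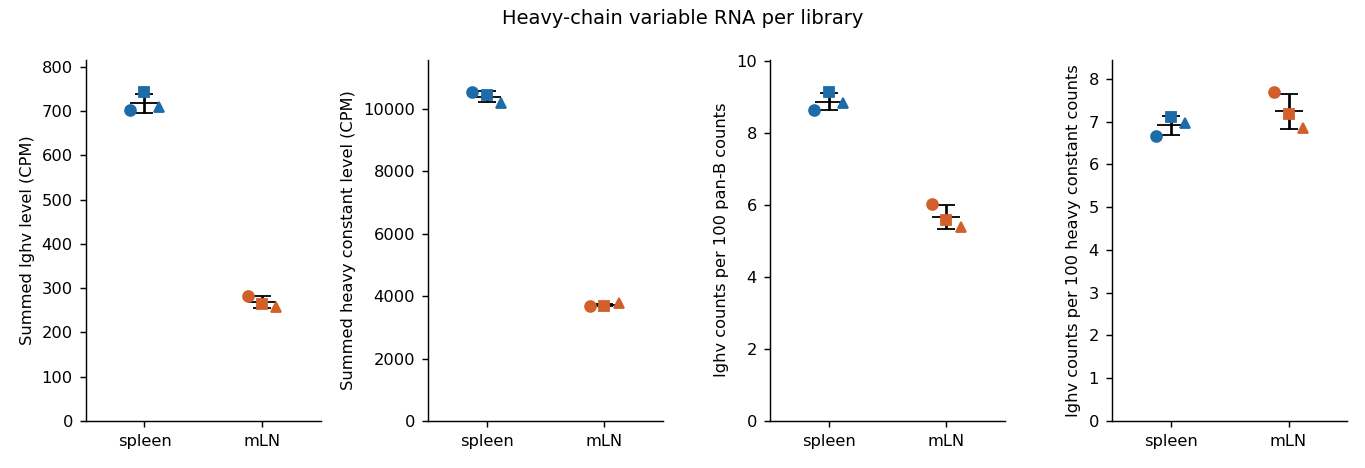
Each point is 1 library (circle, square and triangle for replicates 1, 2 and 3), with the group mean and SD as bars; the panels show the summed Ighv level and the summed heavy constant level (both CPM), Ighv counts per 100 pan-B counts and Ighv counts per 100 heavy constant counts, for spleen and mLN. The mLN libraries lie below the spleen libraries in the first 3 panels (718 against 269 CPM for the Ighv mean) and overlap them in the last.

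Of the 73 segments tested, 61 were lower in mLN, 1 was higher (Ighv1-77) and 11 were not called, at an adjusted p under 0.05 in edgeR's quasi-likelihood test with Benjamini-Hochberg adjustment over all 14427 genes tested. Over all those genes 23.8% were called lower and 21.8% higher. The median log2 fold change (mLN over spleen) of the tested segments was -1.41, with a range of -4.49 to 1.47, beside a median of -0.0018 over all genes. In 66 of the 73 all mLN libraries lay below all spleen libraries in CPM, in 1 above, and in 6 they overlapped, while 27.4% of all genes tested lay wholly below and 25.5% wholly above. Segments that passed the filter through their spleen level were selected toward lower mLN values. For those under its level in every mLN library, the lack of overlap was fixed by the filter too. Of the 54 segments that reached the filter's 0.613 CPM in every mLN library, 47 were lower, 1 was higher and 6 were not called, with a median of -1.32. In 51 of these 54 all mLN libraries lay below all spleen libraries, in 1 above, and in 2 they overlapped. Scaled to pan-B counts, which shifts the median of all genes by 0.77 on the log2 scale, 44 segments were lower and 3 higher (Ighv1-77, Ighv1-5 and Ighv10-3). The shares of all genes called on that scale are not given, so these counts cannot be read against the 23.8% and 21.8% above.

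Of the 10 most abundant segments all were lower in mLN, 6 by less than the median tested segment and 4 by more. Ighv1-26 (114788372 to 114788805) had the highest mean over the 6 libraries. Its level was 39.2, 41.9 and 41.8 CPM in spleen and 19.3, 20.4 and 16.3 CPM in mLN. The tissues do not overlap, and the log2 fold change was -1.12 (SE 0.0895, adjusted p = 4.07e-14). Ighv2-9 (113879096 to 113879541) was the most used segment in each spleen library and Ighv1-26 in each mLN library. Ighv2-9 stood at 44.6, 48.1 and 43.8 CPM in spleen and 10, 12.9 and 7.45 CPM in mLN. That is 4.49-fold higher in spleen without overlap (log2 fold change -2.14, SE 0.118, adjusted p = 9.54e-15). Among the other abundant segments, Ighv1-64 fell by 1.05 on the log2 scale, Ighv9-3 by 1.20, Ighv14-3 by 1.28, Ighv3-6 by 0.93 and Ighv1-82 by 1.22, all called. Scaled to pan-B counts, Ighv3-6 was no longer called (-0.15, adjusted p = 0.25).

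The largest fall was that of Ighv7-1 (ENSMUSG00000076665, 113896408 to 113896946), the segment of the classical mouse antibodies to phosphorylcholine, a component of bacterial cell walls. It stood at 20.2, 23.0 and 19.8 CPM in spleen and 0.801, 1.24 and 0.648 CPM in mLN. Every mLN library was far below every spleen library, 23.5-fold on the means of 21.0 ± 1.74 and 0.895 ± 0.306 CPM (log2 fold change -4.49, SE 0.200, adjusted p = 2.41e-22). Its mLN level rests on 12, 22 and 8 counts. Its relative Ighv7-3 (114153180 to 114153644) stood at 9.54, 10.4 and 12.3 CPM in spleen and 6.81, 6.02 and 7.45 CPM in mLN, a far smaller fall of 0.68 on the log2 scale (SE 0.162, adjusted p = 0.000587). Per 100 Ighv7-3 counts there were 212, 221 and 162 Ighv7-1 counts in spleen and 11.8, 20.6 and 8.70 in mLN, so the order of the pair shown above was opposite in the tissues. Ighv7-3 and the ratios of the pairs were chosen after their values were seen, and the ratios have no test.

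After Ighv7-1 and Ighv12-3, which is described below, the largest falls among segments of at least 1 CPM in spleen came from several subgroups. Ighv8-8 (115294062 to 115294504) stood at 24.4, 29.0 and 23.6 CPM in spleen and 2.27, 5.17 and 2.83 CPM in mLN. It was 7.49-fold higher in spleen with no overlap (log2 fold change -2.86, SE 0.195, adjusted p = 1.68e-10). Without mLN replicate 2 its log2 fold change was -3.34. Ighv2-3 fell by 2.76, Ighv2-5 by 2.74, Ighv5-15 by 2.45, Ighv1-54 by 2.44 and Ighv1-15 by 2.35 on the log2 scale. Of these, Ighv2-3 and Ighv5-15 were below the filter's level in at least 1 mLN library and so were selected toward lower mLN values. Ighv2-5 was below that level in every mLN library and passed the filter through its spleen level alone. That fixed the direction of its difference, so its log2 fold change is given as a description. Ighv2-5 and Ighv5-15 were below 1 CPM in each mLN library and rest on few counts there. Ighv1-55 (115208095 to 115208591), among the 10 most abundant segments, stood at 27.0, 26.5 and 24.3 CPM in spleen and 4.94, 6.07 and 4.86 CPM in mLN, 4.91-fold apart without overlap (log2 fold change -2.28, adjusted p = 1.39e-18). Ighv1-9, likewise abundant, fell by 2.14.

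Ighv12-3 and Ighv11-2 are known as segments of antibodies to phosphatidylcholine that B-1 cells make, a class of B cells with largely innate antibody specificities. Ighv12-3 (114366521 to 114366954) stood at 1.78, 2.07 and 2.45 CPM in spleen and 0.200, 0.0562 and 0.243 CPM in mLN, the latter being 3, 1 and 3 counts. It passed the filter through its spleen level alone, which fixed the direction of its difference, so its fitted log2 fold change of -3.68 (SE 0.585) is given as a description. Ighv11-2 (114048241 to 114048812) stood at 4.08, 3.96 and 7.77 CPM in spleen and 1.80, 1.57 and 1.86 CPM in mLN. All spleen libraries were above mLN and spleen replicate 3 was well above the other two (log2 fold change -1.60, SE 0.294, adjusted p = 1.5e-05). As a share of all Ighv counts, Ighv11-2 held 0.737% ± 0.312 in spleen and 0.651% ± 0.0649 in mLN. The shares overlapped and were not called in the share test given below (log2 change -0.19, SE 0.299). Ighv11-2 is 98.87% identical to Ighv11-1, which had no counts in any library. Of the 5 B-1 markers, Bhlhe41, Zbtb32 and Plscr1 were lower in mLN while Cd5 and Spn, which T cells also express, were higher. The part of B-1 cells in the values of these segments was not tested.

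A single tested segment was called higher in mLN. Ighv1-77 (ENSMUSG00000096452, 115861867 to 115862355) stood at 2.01, 1.77 and 1.43 CPM in spleen and 5.47, 3.26 and 5.83 CPM in mLN. Each mLN library was above each spleen library, with means of 1.74 ± 0.290 and 4.85 ± 1.39 CPM (log2 fold change 1.47, SE 0.300, adjusted p = 7.62e-05). It kept its direction and its call in each alternative run, with log2 fold changes of 1.32 to 2.23. The nearest copy of Ighv1-77 by sequence is Ighv1-84, 93.7% identical. Ighv1-9 (114583569 to 114584002), paired with Ighv1-77 above after their values were seen, stood at 21.4, 22.2 and 23.3 CPM in spleen. In mLN it stood at 4.20, 4.89 and 6.24 CPM. There were 1314 ± 283 Ighv1-9 counts per 100 Ighv1-77 counts in spleen and 111 ± 36.8 in mLN.

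Ighv10-3 and Ighv1-5 were not called in level. Ighv10-3 (114523441 to 114523905) stood at 7.13, 6.94 and 7.77 CPM in spleen and 7.07, 6.47 and 9.15 CPM in mLN, with overlap and a log2 fold change of 0.04 (adjusted p = 0.868). Ighv1-5 (114513330 to 114513807) stood at 13.6, 12.1 and 12.7 CPM in spleen and 11.5, 8.66 and 11.9 CPM in mLN, with all mLN libraries slightly below spleen (log2 fold change -0.27, adjusted p = 0.123). By contrast Ighv10-1 (114479005 to 114479451) stood at 13.3, 15.1 and 12.1 CPM in spleen and 4.20, 4.11 and 4.21 CPM in mLN. It differs from Ighv10-3 at 9 of the 290 bases shown above. The tissues are apart for Ighv10-1 (log2 fold change -1.69, SE 0.165, adjusted p = 1.28e-11), which was chosen after its values were seen. The count of Ighv10-1 per 100 Ighv10-3 was 187 ± 31.1 in spleen and 56.3 ± 9.14 in mLN. Annotated transcripts of the pair are 96.7% identical. Counts of both segments were whole in all libraries, and the effect of their likeness on the ratio was not tested. The other segments that were not called, named here after their values were seen, were Ighv1-4, Ighv1-47, Ighv1-62-2, Ighv1-63, Ighv1-71, Ighv1-74, Ighv5-9-1, Ighv13-2 and Ighv14-2. They were low, with spleen means of 0.753 to 3.61 CPM, and their log2 fold changes ran from -1.10 (Ighv1-47) to 0.20 (Ighv1-63).

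**Figure D2:**
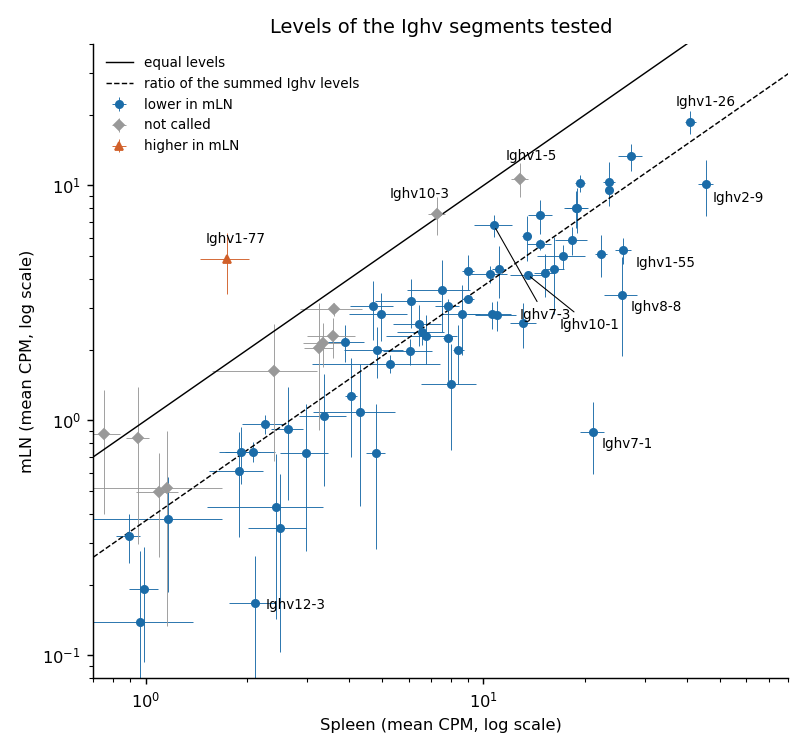
Mean level in mLN against mean level in spleen (CPM, log scales) of the 73 segments tested, with SD bars over 3 libraries each; colour and shape give the call, the solid line equal levels and the dashed line the ratio of the summed Ighv levels. Most points lie near the dashed line, Ighv7-1 and Ighv8-8 lie below it, and Ighv1-77 is the 1 point called higher.

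Summed by subgroup, 13 of the 15 subgroups tested were lower in mLN and 0 higher, where 23.6% of all 14369 rows tested were lower and 21.6% higher. None of the 15 had a fitted value above 0, so 0 were higher at an unadjusted p under 0.05 either, and DESeq2 also called 0. The single segment of Ighv16 had no counts. Ighv1, by far the largest subgroup with 93 segments, stood at 358, 384 and 364 CPM in spleen and 157, 148 and 143 CPM in mLN. All mLN libraries were lower (log2 fold change -1.31, SE 0.0361, adjusted p = 2.30e-29), and 31 of its 39 tested segments were lower, 1 higher and 7 not called. The steepest well-counted falls were those of Ighv8 (44.2 ± 3.0 against 9.20 ± 2.23 CPM, log2 fold change -2.25), Ighv2 (69.6 ± 1.39 against 15.6 ± 3.56 CPM, -2.13) and Ighv7 (31.8 ± 1.94 against 7.65 ± 0.423 CPM, -2.06). Ighv12, whose counts all came from Ighv12-3, is among the 13 but passed the filter through spleen alone (2.10 ± 0.335 against 0.166 ± 0.0978 CPM). So did Ighv15, which is among the 15 tested, and the direction of both was thereby fixed.

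The other subgroups fell by amounts nearer to that of the Ighv sum. These were Ighv11 (-1.60), Ighv6 (-1.51), Ighv5 (-1.32), Ighv14 (-1.30), Ighv4 (-1.28), Ighv9 (-1.26) and Ighv3 (-1.07). Ighv10 changed least among those called, from 20.8 ± 1.14 to 11.7 ± 1.45 CPM (log2 fold change -0.84, adjusted p = 1.53e-07), and was not called when scaled to pan-B counts (-0.06, adjusted p = 0.633). Ighv13 (-0.65, adjusted p = 0.0809) and Ighv15 (-1.18, adjusted p = 0.0702) were not called, and all mLN libraries lay below spleen in both. They are small subgroups, of 3.34 ± 0.433 and 1.17 ± 0.514 CPM in spleen. Ighv15 stood at 0.534, 0.450 and 0.567 CPM in mLN, below the filter's 0.613 CPM in every library. It passed the filter through its spleen level alone, which fixed the direction of its difference.

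To ask which segments changed relative to the rest, each was tested as a share of all Ighv counts, with the library size set to the Ighv total. On this scale the median of all genes lies at 1.42, because Ighv RNA was lower in mLN, and 75.8% of all genes tested were called higher and 1.79% lower with Holm adjustment over all 14427 genes. Of the 73 segments 3 had a higher share in mLN, 6 a lower share and 64 were not called, with a median log2 change of -0.02. With Benjamini-Hochberg in place of Holm, an alternative chosen after seeing the data, 18 were higher and 17 lower. That adjustment is lenient on a scale where most genes change. Its all-gene shares are not given, so these 2 counts have no background beside them.

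Ighv7-1 lost the most, from 2.88%, 3.10% and 2.80% of Ighv counts in spleen to 0.283%, 0.467% and 0.251% in mLN (log2 change -3.08, SE 0.227, Holm-adjusted p = 3.66e-38). Ighv8-8 went from 3.47%, 3.91% and 3.33% to 0.802%, 1.95% and 1.1% (-1.44, SE 0.165, Holm-adjusted p = 1.25e-14). In both, every mLN library lay below every spleen library, and mLN replicate 2 was the highest of its group. Ighv2-9 went from 6.33% ± 0.155 to 3.77% ± 1.02 (-0.72, Holm-adjusted p = 3.13e-06) and Ighv1-55 from 3.62% ± 0.214 to 1.97% ± 0.284 (-0.87, Holm-adjusted p = 4.25e-05), also without overlap. These 4 kept their calls in each alternative run. Ighv1-15 (1.83% ± 0.143 to 0.965% ± 0.193, Holm-adjusted p = 0.0215) and Ighv1-9 (3.11% ± 0.150 to 1.92% ± 0.469, Holm-adjusted p = 0.0200) did not. Ighv1-15 lost its call without mLN replicate 2 or any 1 spleen replicate, with the Holm-adjusted p reaching 1, and so did Ighv1-9, which lost it without mLN replicate 1 too. Both were also lost without a filter (0.0851 and 0.0734) and with DESeq2 (0.488 and 0.610). Ighv1-15 is 98.01% identical to Ighv1-23, and the counts of both were whole in all 6 libraries.

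The gains were those of Ighv1-77, Ighv10-3 and Ighv1-5. Ighv1-77 held 0.287%, 0.238% and 0.202% of Ighv counts in spleen and 1.93%, 1.23% and 2.26% in mLN, with each mLN library above each spleen library (log2 change 2.88, SE 0.304, Holm-adjusted p = 1.56e-17). Ighv10-3 held 1.02%, 0.935% and 1.1% in spleen and 2.5%, 2.44% and 3.55% in mLN (1.46, SE 0.187, Holm-adjusted p = 2.40e-11). Ighv1-5 held 1.94%, 1.63% and 1.79% in spleen and 4.08%, 3.27% and 4.61% in mLN (1.15, SE 0.151, Holm-adjusted p = 1.67e-10). Neither overlapped between tissues, and the 3 gains kept their calls in each alternative run. Ighv7-3 held 1.5% ± 0.201 in spleen and 2.52% ± 0.324 in mLN and was not called (0.74, Holm-adjusted p = 0.0702), nor was Ighv10-1 (1.88% ± 0.168 to 1.56% ± 0.0728, Holm-adjusted p = 1).

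**Figure D3:**
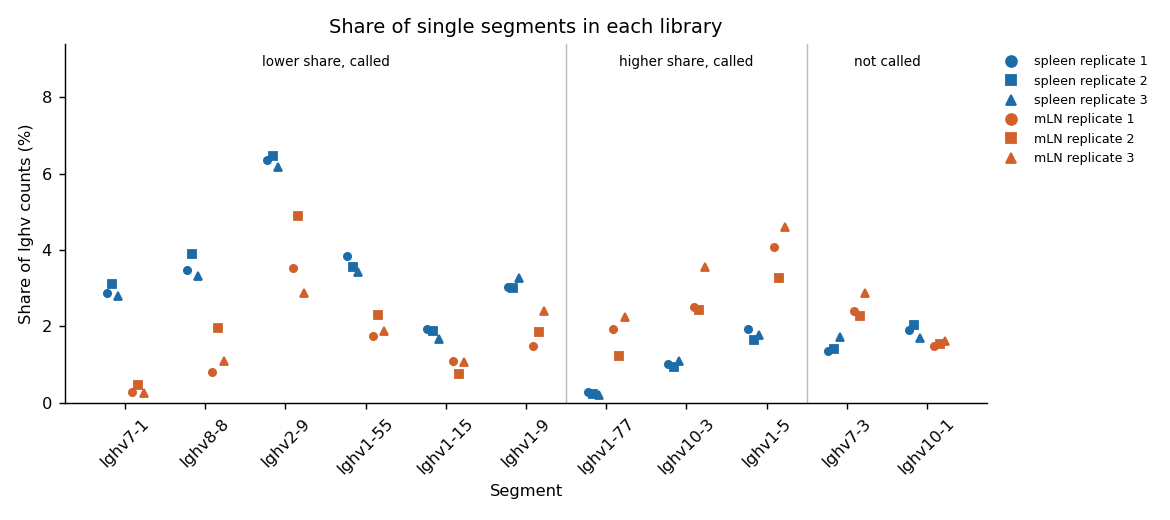
Share of all Ighv counts (%) held by the 9 segments called in the share test and by Ighv7-3 and Ighv10-1 in each of the 6 libraries; each point is 1 library, and vertical lines separate lower, higher and not called. In each of the 11 segments the mLN points lie wholly to 1 side of the spleen points, for example 0.251% to 0.467% against 2.80% to 3.10% for Ighv7-1.

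By subgroup, 3 of the 15 tested had a lower share in mLN, 1 a higher share and 11 were not called, beside 1.77% lower and 76.1% higher over all rows. Ighv2 went from 10%, 9.49% and 9.58% of Ighv counts to 5.88%, 7% and 4.52% (log2 change -0.72, SE 0.101, Holm-adjusted p = 3.42e-09). Ighv8 went from 6.57%, 6.17% and 5.75% to 2.62%, 4.41% and 3.29% (-0.83, SE 0.121, Holm-adjusted p = 3.10e-08). The tissues do not overlap in either, and Ighv2-9 gave 65.3% of the Ighv2 counts and Ighv8-8 54.7% of the Ighv8 counts over the 6 libraries. Ighv7 went from 4.43% ± 0.165 to 2.86% ± 0.246 (-0.64, Holm-adjusted p = 0.0062). It holds Ighv7-1, whose share was lower, and Ighv7-3, whose share was not called. Its call was lost with DESeq2 (0.0616) and without any 1 library other than mLN replicate 3 (up to 0.208).

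Ighv10 was the subgroup that gained, from 2.92%, 2.97% and 2.80% to 3.99%, 3.99% and 5.18% (log2 change 0.59, SE 0.134, Holm-adjusted p = 0.0375). All mLN libraries were above spleen, yet the call was lost with DESeq2 (0.324), without a filter (0.138), with the replicate number as a block (0.091) and without any 1 spleen replicate or mLN replicate 3 (up to 1). Ighv1 held 51.0%, 51.8% and 51.3% in spleen and 55.6%, 55.7% and 55.3% in mLN, a narrow gap without overlap that was not called (0.11, SE 0.0617, Holm-adjusted p = 1). The share fit estimates scatter partly from all genes, with a common coefficient of variation of 0.0738 beside 0.0549 in the level fit. Its SE for Ighv1 is thus not set by the scatter of the Ighv1 shares alone. The missing call does not show that the share of Ighv1 was equal in the tissues. The Ighv3, Ighv13 and Ighv14 shares also lay wholly above spleen and that of Ighv12 wholly below, and none of them was called. Ighv12 passed the filter through spleen alone and rests on 3, 1 and 3 counts in mLN.

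**Figure D4:**
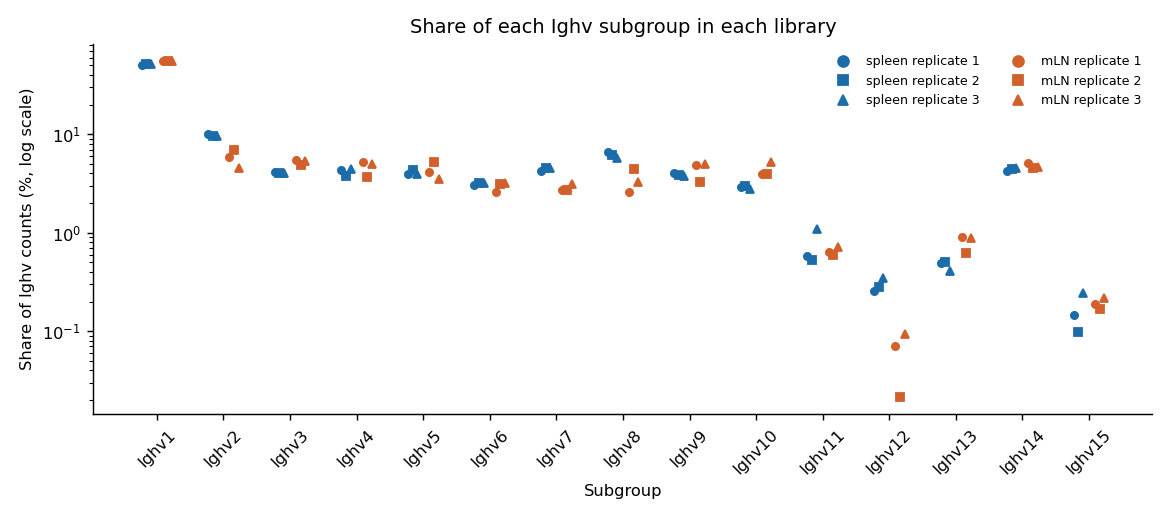
Share of all Ighv counts (%, log scale) of the 15 subgroups with counts in each of the 6 libraries; each point is 1 library. Ighv1 holds over 50% in each library (51.0% to 55.7%), and the Ighv2, Ighv7, Ighv8 and Ighv12 points of mLN lie below those of spleen. The Ighv12 points of mLN rest on 3, 1 and 3 counts, and Ighv12 passed the filter through spleen alone.

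Measures of the evenness of segment use differed little between tissues, some of them without overlap. Segments with any count numbered 99, 106 and 99 in spleen and 92, 92 and 90 in mLN. Drawn down to 3187 Ighv counts, the smallest total, the numbers were 91.3 ± 0.404 and 89.8 ± 0.254, and in both counts all mLN libraries were below spleen. The effective number of segments, the number of equally used segments that would give the same Shannon entropy, was 52.8 ± 1.04 in spleen and 51.6 ± 0.741 in mLN, with overlap. The most used segment held 6.33% ± 0.155 (Ighv2-9) and 6.95% ± 0.706 (Ighv1-26), also with overlap, and the 10 most used in a library held 38.4% ± 0.735 and 40.2% ± 0.919, with all mLN libraries above spleen.

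Along the locus, the 46 segments nearest the D segments held less of the Ighv RNA in mLN, and the next 46 more. Segments were ordered by position from the D segments and divided into 4 runs, of which the nearest (from Ighv5-1 to Ighv6-2) held 25.9%, 25.6% and 26.3% in spleen and 21.2%, 21.5% and 18.7% in mLN. The next 46 (Ighv9-1 to Ighv1-13) held 23.4%, 22.8% and 23.4% in spleen and 29.3%, 25.9% and 32.5% in mLN. Neither run overlapped between tissues, the former holding Ighv2-9 and Ighv7-1 and the latter Ighv10-3 and Ighv1-5. The third run held 18.4% ± 0.459 and 19.7% ± 1.65 with overlap, and the farthest 32.4% ± 0.883 and 30.6% ± 0.784, with all mLN libraries below spleen. Over the 73 tested segments, which share libraries and are not independent, order and log2 share change correlated with a Pearson coefficient of 0.215 and a Spearman coefficient of 0.144. The plot of share change along the locus shows called losses spread from the 32nd to the 145th segment and called gains at the 80th, 81st and 176th.

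**Figure D5:**
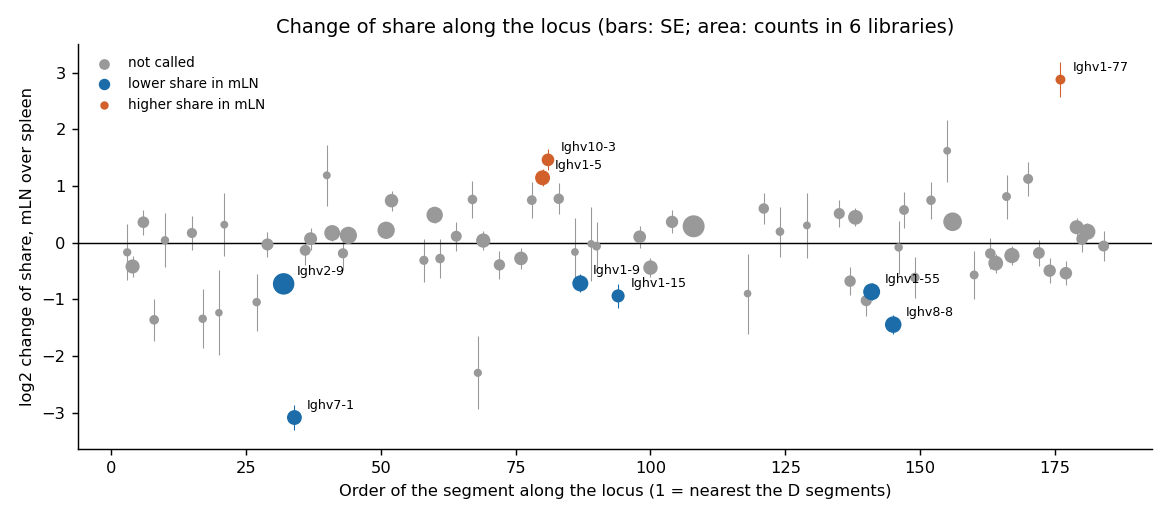
Fitted log2 change of share (mLN over spleen) of the 73 tested segments against their order along the locus, 1 being nearest the D segments; bars are SE and point area follows the counts of the 6 libraries. The called losses run from Ighv2-9 and Ighv7-1 near the D segments to Ighv8-8 far from them, and the called gains are Ighv1-5, Ighv10-3 and the distant Ighv1-77.

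Segments annotated as pseudogenes held 2.77% ± 0.300 of Ighv counts in spleen and 3.38% ± 0.461 in mLN, with overlap, and 20 of the 70 had counts. Nearly all of this was Ighv4-2 (114013144 to 114013606), the 1 pseudogene tested, at 19.4, 17.2 and 20.0 CPM in spleen and 9.27, 6.42 and 8.42 CPM in mLN. All mLN libraries were below spleen (log2 fold change -1.24, adjusted p = 4.76e-10), and its value is uncertain because it is 96.4% identical to Ighv4-1. The next most counted were Ighv1-2 with 45 counts in all 6 libraries, Ighv1-38 with 9, Ighv1-70 with 7, Ighv1-79 with 6 and Ighv15-1 with 5, too few to test.

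The heavy constant genes, which supply the other end of the same RNAs, moved in both directions. Of the 8 constant genes and Jchain, the joining chain of IgM and IgA, 5 were lower, 3 higher and 1 not called (median -0.48), beside 23.8% lower and 21.8% higher over all genes tested. Ighm, the constant gene of IgM, went from 8440 ± 165 CPM in spleen to 1987 ± 34.7 CPM in mLN (log2 fold change -2.09, adjusted p = 2.44e-46). Ighd, that of the IgD of mature naive cells, changed less, from 1076 ± 5.84 to 770 ± 17.0 CPM (-0.48). Igha, that of the IgA of mucosal surfaces, rose from 146 ± 4.87 to 393 ± 10.4 CPM (1.43, adjusted p = 7.29e-32). Ighe and Ighg2b were the other constant genes that rose (1.90 and 0.74), and Ighg2c (-2.24) and Jchain (-2.0) were among those that fell, where reads of the closely related Ighg genes are apportioned by a model. There were 12.8 ± 0.187 Ighd counts per 100 Ighm counts in spleen and 38.7 ± 0.766 in mLN, and 1.73 ± 0.0790 and 19.8 ± 0.853 Igha counts.

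Other genes of heavy chain expression were read against the same all-gene shares of 23.8% lower and 21.8% higher. Of 12 receptor partners and factors acting on variable segment promoters, 9 were lower, 2 higher and 1 not called (median -0.62). Cd79a and Cd79b, the signalling partners of surface immunoglobulin, fell by 0.76 and 0.79 on the log2 scale, Pou2af1, the coactivator of octamer-binding factors at these promoters, by 0.92, and Spib by 0.83. Of 14 genes of segment joining and the surrogate light chain 11 were tested, of which 4 were lower, 2 higher and 5 not called (median 0.13), which is near the all-gene shares. Rag1, which encodes part of the joining recombinase, went from 5.01 ± 1.01 CPM in spleen to 0.673 ± 0.165 CPM in mLN (-2.86, adjusted p = 2.48e-09). Its mLN level lay near the filter's 0.613 CPM. Rag2, on the same list, was low in both tissues and not called (0.603 ± 0.504 and 0.784 ± 0.0988 CPM, adjusted p = 0.640). Vpreb3 fell by 0.63, and Dntt, which adds bases at the joins, rose from 1.92 ± 0.479 to 3.89 ± 0.306 CPM (1.01, adjusted p = 0.0051). Of 6 genes of mutation and class switching, 2 were lower, 1 higher and 3 not called (median -0.12), also near the all-gene shares. Exo1, a DNA exonuclease of mismatch repair, went from 8.42 ± 1.92 to 4.18 ± 1.01 CPM (-0.99, adjusted p = 0.000102).

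Marker lists of the cells in the sorts moved with the tissues, beside 23.8% lower and 21.8% higher over all genes tested. All 14 pan-B markers were lower in mLN (summed 8019 to 8131 CPM in spleen, 4692 to 4786 in mLN), as were 9 of 10 plasma cell markers (1412 to 1421 against 584 to 602 CPM). All 10 pan-T markers were higher (1396 to 1400 against 3118 to 3133 CPM). All 7 neutrophil markers (1231 to 1252 against 1.63 to 2.47 CPM) and all 8 erythroid markers (2238 to 2338 against 17.9 to 24.3 CPM) were lower, with Car1 at 0 in each mLN library. The 5 B-1 markers summed to 562 to 596 CPM in spleen and 719 to 758 CPM in mLN, a sum held mainly by Spn and Cd5. The part of these shifts in the Ighv levels was not tested beyond the ratios to pan-B and constant counts above.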

How the data were processed

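The authors deposited a gene table for each library with an expected count (an estimate of reads per gene that need not be whole), an effective length and a TPM value, per the file headers. STAR, RSEM and mm10 are named in the submitters' processing notes. Their versions and parameters, the annotation and the strand setting were not given in the sources used here. Reads of joined, sometimes mutated segments were thus counted on a reference of annotated transcripts, and reads shared by close copies were apportioned by a model. The effect on single segments was not tested. Of the 185 segments, 18 have a copy over 98% identical, and 16 of the 73 tested have counts that are not whole (beyond 0.005). The deposited TPM entered 1 alternative for each of the summed measures, and the effective length entered 1 for the level tests.

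Expected counts were rounded. Genes were kept with filterByExpr by group (minimum count 10), which left 14427. Libraries were scaled with TMM, and tissue was tested with the robust quasi-likelihood F-test of edgeR 4.0.16 in R 4.3.3, with SE taken from the F statistic and levels adjusted by Benjamini-Hochberg. Subgroups were fitted as sums that replaced their segments in the table. The share test used the same table with library size set to the Ighv total and Holm adjustment over all rows. Calls required an adjusted p under 0.05, and fold changes are mLN over spleen. Fits were tested on simulated data. DESeq2 1.42.0, other filters and scalings, the replicate number as a block and leaving out each library were alternatives. Identity was computed with Biopython 1.88 on GENCODE M21 transcripts. Symbols matched 55227 of 55487 identifiers, and coordinates are 1-based gene extents on chromosome 12 of GRCm38.

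The members, lists and tests were chosen with earlier results of these data known. Segments were named by a rule that takes the 10 most abundant, the largest called changes in level (8 in each direction, a mean of 1 CPM or more where higher) and in share (6 in each direction, 0.5% or more where higher) without overlap of tissues, and the 6 most counted pseudogenes. Of each gene list it takes the 3 largest called changes. Some genes it takes are not reported here. Ighm, Ighd, Igha, Cd79a, Cd79b and Pou2af1 are named whatever their values, and others were named after their values were seen. Reads carried no molecular identifiers.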

Additional observations from a re-analysis of the deposited data

How the results depend on the processing

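Most single values (783 of 822 under the alternatives) kept their direction and their side of the threshold, 28 lost a call, 4 gained one and 7 turned direction. Scaling to pan-B counts, for which all-gene shares are not given, gave 3 higher segments in place of 1. It turned Ighv1-5 to a log2 level change of 0.50 (adjusted p = 0.00168) and Ighv13 to 0.12. Ighv10-3, near 0 in level, turned to -0.0058 with an effective length offset and to -0.10 without mLN replicate 3 (range over left-out libraries -0.10 to 0.15). Some shares that were not called turned too. Ighv11 reached 0.22 without spleen replicate 3 (range -0.37 to 0.22), Ighv15 -0.035 without spleen replicate 2 (-0.035 to 0.63) and Ighv5 -0.079 without mLN replicate 2 (-0.079 to 0.22). The cause of these turns was not tested. With the more lenient Benjamini-Hochberg adjustment, whose all-gene shares are not given, 17 segments had a lower and 18 a higher share. It gave 3 subgroups a higher share in place of 1. That subgroup count was 0 without a filter, with DESeq2 and with the replicate block, and 0 to 1 when each library was left out. Leaving out each library gave 57 to 63 lower segments and 4 to 6 of lower share. Taken from the deposited TPM, the log2 ratio was -1.53 for the Ighv sum and -0.0421 per heavy constant gene sum. Without pseudogenes the effective number of segments was 51.5 in spleen and 50.02 in mLN.

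The labels do not say whether same-numbered spleen and mLN samples are related beyond the number. Their deviations from group means correlated at 0.0232, 0.0281 and -0.0025. Spleen replicates 1 and 2 correlated best with their own number and spleen replicate 3 with another. Values so near 0, from deviations within groups of 3, cannot tell whether the samples are paired. The replicate block gave 59 lower segments in place of 61. Low counts limit what could be seen: 49 segments with counts were not tested, and mLN libraries held at most 4712 Ighv counts.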
